A study of Homo sapiens with 12 samples.

Results

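The cadherins and protocadherins described here were CDH2, CDH4, CDH6, CDH10, CDH11, CDH13, PCDH7, PCDH9, PCDH10 and PCDH18, 10 adhesion genes followed across wild-type, mock and hHSS1-transfected A172 cells. They were chosen with their levels on these same arrays known, so that their values are a description and the adjusted p-values beside them are no independent evidence. Of the 10 genes, 8 were measured among 18417 genes, each by 1 probe set, and CDH4 and CDH13 were not analysed here because the annotation used lists no probe set for them. A172 is an adherent line established from a human glioblastoma. Total RNA was hybridised to the Affymetrix Human Gene 1.0 ST chip, whose probes are spread along each gene, and each probe set gave a log2 expression level, so that a difference of 1 is a doubling. The 12 arrays fell into 4 groups of 3. Wild-type cells were not transfected, and mock cells were stably transfected with empty pcDNA3.1. The cells labelled clone 7 and clone 8 stably carried pcDNA3.1 with hHSS1 (now EMC10) bearing a histidine tag at its C-terminal end, and the study's methods kept stable clones under G-418. All cultures were growing exponentially when harvested on day 4. Mock and each clone are 1 line each, so that p-values measure the spread between cultures and not between independently made lines.

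Classical cadherins are transmembrane proteins that bind a like cadherin on the next cell in the presence of calcium, and their cytoplasmic tails hold catenins that lead to actin. Type I cadherins such as CDH2 (N-cadherin) give strong adhesion, while type II cadherins such as CDH6, CDH10 and CDH11 dock through a different pocket of the outermost repeat. Protocadherins adhere more weakly and lack the catenin-binding tail of the classical cadherins, and some of the non-clustered ones recruit the actin-nucleating WAVE complex. N-cadherin is widely expressed in glioma, and CDH10, CDH11, PCDH9 and PCDH10 are known from the developing nervous system.

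The promoters of CDH10 and PCDH18 are shown because these genes had the largest rise and the largest fall of the 8 in both clones against wild-type cells. Each line holds the 250 bases upstream of the annotated start in RefSeq (GRCh38.p14), 5′ to 3′ on the strand of the gene, with every CG dinucleotide in capitals. The CDH10 window is chr5:24644979-24645228 and the PCDH18 window is chr4:137532495-137532744, both on the minus strand.
CDH10: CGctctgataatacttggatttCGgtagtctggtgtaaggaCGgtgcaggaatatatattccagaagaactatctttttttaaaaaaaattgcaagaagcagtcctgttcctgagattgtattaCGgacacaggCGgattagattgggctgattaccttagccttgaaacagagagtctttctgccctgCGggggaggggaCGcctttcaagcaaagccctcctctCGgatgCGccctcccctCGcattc
PCDH18: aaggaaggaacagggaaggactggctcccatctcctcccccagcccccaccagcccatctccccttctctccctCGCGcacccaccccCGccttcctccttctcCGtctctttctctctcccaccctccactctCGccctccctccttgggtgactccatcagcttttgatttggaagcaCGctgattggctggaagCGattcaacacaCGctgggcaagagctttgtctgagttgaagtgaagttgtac
The CDH10 window was 47.6% G and C and held 10 CG dinucleotides, and the PCDH18 window was 58.4% and held 8. The medians over 35116 promoter windows of this length were 58% and 11. Neither window held CAGGTG or CACCTG, the same E-box on either strand, which SNAI2 and related repressors read and which 17.5% of all windows held. Neither held TAATTA, a core read by many homeodomain factors, PRRX1 among them, which 4.35% of windows held. Most windows of all genes lacked each of these exact sequences, so that their absence here decides nothing about any regulator. Of the other measured genes, CDH2, PCDH7 and PCDH9 had an entry in the promoter table, and CDH6, CDH11 and PCDH10 had none there.

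EMC10, the introduced gene, lay between 10.43 and 11.13 on the wild-type arrays, between 9.20 and 9.51 on mock and between 11.57 and 12.30 on the clone arrays. Both clones exceeded mock by 2.59 ± 0.18 (SE) on the log2 scale (6.04-fold, adjusted p 7.82e-06) and wild-type by 1.19 ± 0.18 (2.28-fold, adjusted p 0.0013), and mock lay below wild-type by 2.65-fold (-1.40 ± 0.20, adjusted p 0.00285). These were, without the 2 arrays described next, 2.55 ± 0.14, 1.15 ± 0.14 and -1.40 ± 0.14 (adjusted p 1.35e-06, 0.000178 and 0.000125). Of 10 astroglial markers 6 lay at or above the lower quartile of all gene levels (7.80), VIM among them with a mean of 13.72 in wild-type cells, and GFAP had a mean of 8.65. The lower quartile was also reached by 4 of 8 endothelial, 4 of 7 leukocyte and 6 of 7 epithelial markers. So it was by 7 of 7 neuronal and 7 of 8 fibroblast markers. The median gene level (9.21) was reached by 2 astroglial, 0 endothelial, 5 fibroblast, 3 epithelial, 1 neuronal and 1 leukocyte markers. These counts single out no cell type. The array means of the astroglial markers ran from 8.11 to 8.42. The array means of 7 leukocyte markers ran from 7.52 to 7.72, of 7 epithelial markers from 9.68 to 9.98 and of 7 neuronal markers from 8.29 to 8.81. The mean level of 8 fibroblast markers was 10.25 on the wild-type arrays, 9.89 on mock, 9.81 on clone 7 and 9.56 on clone 8, and their part in the results was not tested. In RNA from a whole culture, fewer cells that express a gene and less RNA per cell cannot be told apart.

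The arrays labelled clone 7 replicate 3 and clone 8 replicate 3 went against their labels. After each gene's mean over the 6 clone arrays was subtracted, array 3 of clone 7 correlated across 18417 genes at 0.30 and 0.72 with arrays 1 and 2 of clone 8, and at -0.68 and -0.64 with arrays 1 and 2 of clone 7. Array 3 of clone 8 correlated at 0.49 and 0.41 with arrays 1 and 2 of clone 7, and at -0.25 and -0.82 with arrays 1 and 2 of clone 8. Arrays 1 and 2 of clone 7 were alike (0.75), while arrays 1 and 2 of clone 8 were not (0.09). The subtracted mean is shared by all 6 arrays, and genes are not independent replicates. The wild-type and mock arrays each lay nearest to an array of their own group. The cause was not tested. Groups were kept as labelled and no array was moved. Differences of single genes that use the clone arrays are given with all 12 arrays and without these 2, and correlations, array ranges and group means with all 12. The 2 arrays were left out for their measured profile, so that what is found between clone 8 and clone 7 without them is a description only. Leaving them out also lowers the spread pooled over the 4 groups for genes on which they differ from the other arrays of their label. Standard errors and adjusted p of such genes then shrink even in mock against wild-type, where no array was left out. Such smaller p-values are no stronger evidence.

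**Figure D1:**
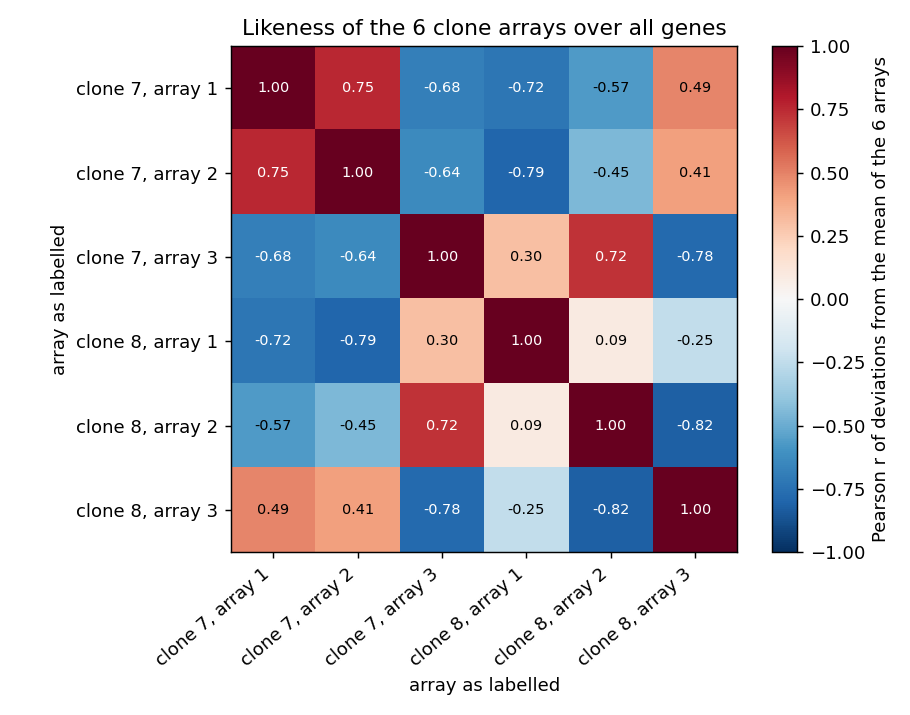
Pearson correlation between the 6 clone arrays (rows and columns, named as labelled) of each gene's deviation from its mean over these 6 arrays, across 18417 genes. Array 3 of clone 7 is positively correlated with arrays 1 and 2 of clone 8 (0.30 and 0.72), and array 3 of clone 8 with arrays 1 and 2 of clone 7 (0.49 and 0.41).

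Against mock, the clones had higher CDH10 and PCDH10, and against wild-type cells they had higher CDH10 and lower PCDH18. Mock cells had lower PCDH10 than wild-type cells. CDH2, CDH6, PCDH7 and PCDH9 were called in none of the 6 contrasts, with or without the 2 arrays. A gene was called changed at an adjusted p under 0.05 in limma over all genes and a difference of at least 1.5-fold (0.58 on the log2 scale). By that rule 2 of the 8 genes were called in both clones against mock, beside 0.728% of all genes, 1 in clone 7 against mock, beside 0.7%, 2 in clone 8 against mock, beside 0.76%, 0 in clone 8 against clone 7, beside 0%, 1 in mock against wild-type, beside 0.673%, and 2 in both clones against wild-type, beside 1.58%. Without the 2 arrays the calls were 3, 1, 4, 3, 1 and 2 in the same order, beside 1.04%, 2.17%, 2.06%, 3.35%, 1.08% and 1.88% of all genes. These shares are the background of each contrast, and nothing is read from the counts beside them because the genes were selected on these values. In clone 8 against clone 7, where limma called no gene with all 12 arrays, 1328 genes and 0 of the 8 had an unadjusted p under 0.05. All contrasts with mock share the 3 mock arrays, and all with wild-type share the 3 wild-type arrays.

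**Figure D2:**
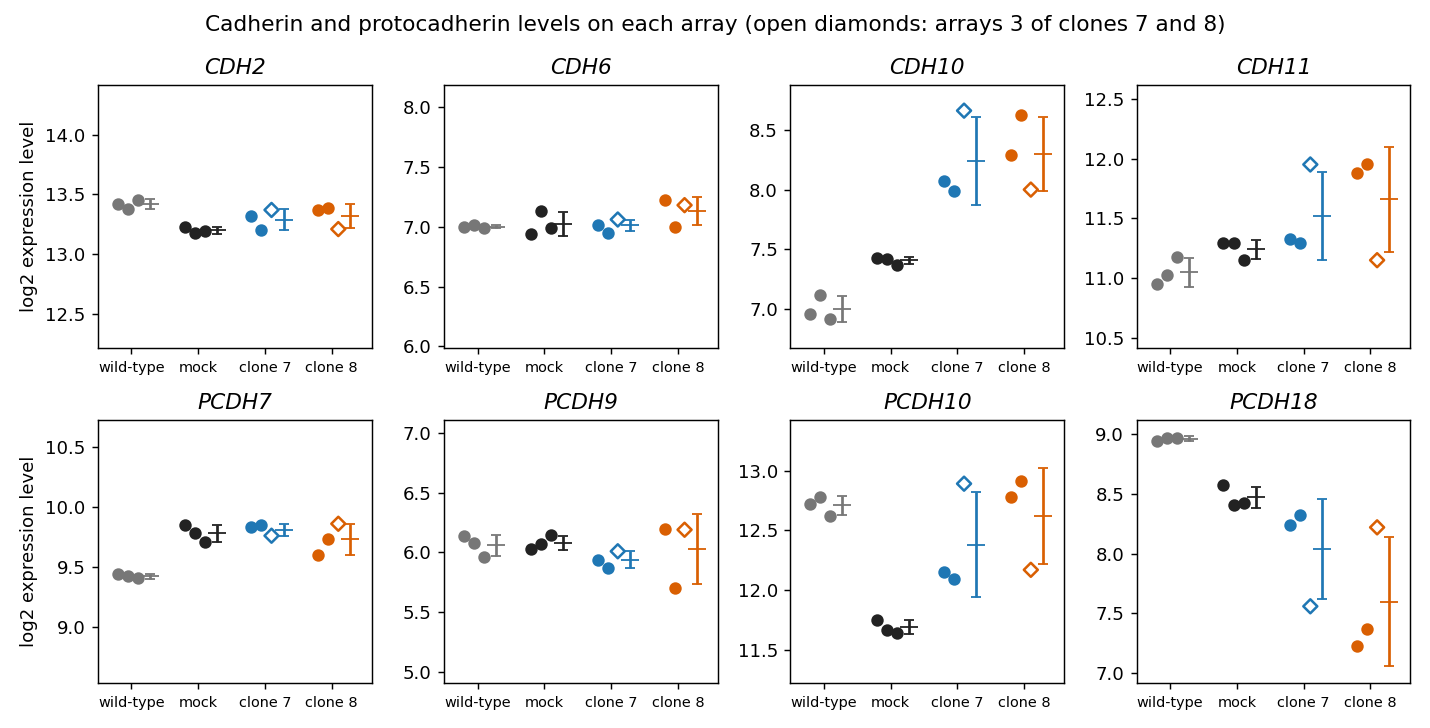
Log2 expression level (vertical axis, of equal span in each panel) of the 8 measured cadherins and protocadherins in the 4 groups (horizontal axis), each point being 1 array and each bar the mean and SD of 3 arrays. Open diamonds are arrays 3 of clones 7 and 8, which lie near arrays 1 and 2 of the other clone for CDH11, PCDH10 and PCDH18.

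CDH2 is the N-cadherin of neural and mesenchymal cells and the only type I cadherin among the measured genes of the group. Its levels were 13.42, 13.38 and 13.45 on the wild-type arrays, 13.23, 13.18 and 13.19 on mock, 13.32, 13.20 and 13.37 on clone 7 and 13.37, 13.39 and 13.21 on clone 8. All clone arrays lay between 13.20 and 13.39, a range that met both the mock and the wild-type levels, while mock and wild-type did not overlap. CDH2 differed by 0.11 ± 0.06 (SE) between both clones and mock (95% interval -0.02 to 0.24, adjusted p 0.327), by -0.22 ± 0.07 between mock and wild-type (adjusted p 0.139) and by -0.11 ± 0.06 between both clones and wild-type (adjusted p 0.264). The differences were 0.12, -0.22 and -0.10 without the 2 arrays, with adjusted p 0.149, 0.0301 and 0.223, all under the fold limit.

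CDH10, a type II cadherin of the brain, rose in the clones. Its levels were 6.96, 7.12 and 6.92 on the wild-type arrays and 7.43, 7.42 and 7.37 on mock. They were 8.07, 7.99 and 8.66 on the arrays labelled clone 7 and 8.29, 8.62 and 8.00 on those labelled clone 8. Every clone array lay above every mock array, and every mock array above every wild-type array. All control arrays lay below the lower quartile of gene levels (7.80) and all clone arrays above it, so that the size of the fold rests on dim controls. CDH10 was 1.82-fold higher in both clones than in mock (log2 0.87 ± 0.15, adjusted p 0.00494) and 2.42-fold higher than in wild-type (1.28 ± 0.15, adjusted p 0.000235). Without the 2 arrays these were 0.84 ± 0.08 (adjusted p 8.16e-05) and 1.25 ± 0.08 (adjusted p 1.71e-06). Both calls held under every alternative run.

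For the single clones, CDH10 was higher than in mock by 0.83 ± 0.17 in clone 7 (adjusted p 0.0212) and by 0.90 ± 0.17 in clone 8 (adjusted p 0.0127). Leaving out any 1 mock array ended both calls, at adjusted p 0.0809 to 0.0851 for clone 7 and 0.0528 to 0.0592 for clone 8, with differences of 0.82 to 0.84 and 0.88 to 0.91. Without the 2 arrays, CDH10 was higher by 0.63 ± 0.10 in clone 7 (adjusted p 0.00124) and by 1.05 ± 0.10 in clone 8 (adjusted p 4.19e-05). Mock exceeded wild-type by 0.41 ± 0.17 (adjusted p 0.341), which missed the threshold although the arrays did not overlap. Clone 8 exceeded clone 7 by 0.06 ± 0.17 (interval -0.31 to 0.43, adjusted p 0.895), and by 0.42 ± 0.10 without the 2 arrays (adjusted p 0.0167), under the fold limit.

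CDH11, the type II cadherin first known from osteoblasts and also found in mesenchymal and glioma cells, was higher on some clone arrays and not on others. Its levels were 10.95, 11.03 and 11.18 on the wild-type arrays, 11.29, 11.29 and 11.15 on mock, 11.33, 11.29 and 11.95 on clone 7 and 11.88, 11.95 and 11.15 on clone 8. Array 3 of clone 7 and arrays 1 and 2 of clone 8 lay between 11.88 and 11.95, and the remaining clone arrays between 11.15 and 11.33, beside 11.15 to 11.29 on mock. With all arrays no contrast was called, and both clones differed from mock by 0.35 ± 0.18 (adjusted p 0.3) and from wild-type by 0.54 ± 0.18 (adjusted p 0.0749). These were 0.37 ± 0.07 (adjusted p 0.00359) and 0.56 ± 0.07 (adjusted p 0.000163) without the 2 arrays, both under the fold limit. Leaving out array 3 of clone 8 brought CDH11 to a call in clone 8 against mock (0.67, adjusted p 0.0317) and in both clones against wild-type (0.67, adjusted p 0.00619). Without both arrays it was called in clone 8 against mock (0.67 ± 0.08, adjusted p 0.000207) and in clone 8 against clone 7 (0.61 ± 0.09, adjusted p 0.000648), while clone 7 differed from mock by 0.07 ± 0.08 (adjusted p 0.69).

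CDH6, a type II cadherin of kidney and developing brain, lay between 6.94 and 7.22 on all 12 arrays. It stayed below the lower quartile of gene levels in every group, where signal and background could not be told apart. Its largest difference among the 6 contrasts was 0.13 ± 0.07 between clone 8 and clone 7 (adjusted p 0.62), and 0.13 ± 0.09 without the 2 arrays (adjusted p 0.368).

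PCDH10 (OL-protocadherin), a non-clustered protocadherin known as a recruiter of the WAVE complex and as a gene silenced in several cancers, was low in mock and high in the other 3 groups. Its levels were 12.72, 12.78 and 12.62 on the wild-type arrays and 11.75, 11.67 and 11.64 on mock. They were 12.15, 12.09 and 12.89 on the arrays labelled clone 7 and 12.78, 12.91 and 12.17 on those labelled clone 8. Mock overlapped no other group, while the clone arrays lay on both sides of the wild-type range. PCDH10 was 2.03-fold lower in mock than in wild-type (log2 -1.02 ± 0.20, adjusted p 0.0209) and 1.75-fold higher in both clones than in mock (0.81 ± 0.18, adjusted p 0.0181). Both differences use the same 3 mock arrays. Against wild-type the clones differed by -0.21 ± 0.18, with an interval of -0.60 to 0.18 (adjusted p 0.487), and by -0.22 ± 0.06 without the 2 arrays (adjusted p 0.0236), under the fold limit.

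The PCDH10 calls lay close to the threshold. With only the compared groups in the fit, the adjusted p was 0.052 for both clones against mock and 0.0509 for clone 8 against mock, and neither was called. Leaving out any 1 wild-type or mock array ended the call of mock against wild-type, with differences of -1.07 to -0.98 and adjusted p 0.0665 to 0.104. Leaving out any 1 mock array ended the call of both clones against mock, with differences of 0.79 to 0.84 and adjusted p 0.0767 to 0.0911. Clone 8 against mock was called as well (0.93 ± 0.20, adjusted p 0.0242), and this call ended without any 1 mock array (adjusted p 0.0811 to 0.0981) or without array 1 of clone 8 (0.85, adjusted p 0.0863). Clone 7 against mock was not called (0.69 ± 0.20, adjusted p 0.101), and was called without array 3 of clone 8 (0.69, adjusted p 0.0315). The SD of 3 arrays was 0.08 in wild-type and 0.06 in mock, but 0.44 in clone 7 and 0.40 in clone 8, and the fit pools them. Without both doubted arrays, PCDH10 differed by -1.02 ± 0.06 between mock and wild-type (adjusted p 2.91e-06), by 0.80 ± 0.06 between both clones and mock (adjusted p 1.39e-05) and by 0.72 ± 0.08 between clone 8 and clone 7 (adjusted p 0.000103). The mock and wild-type arrays were the same in both fits, so that their smaller error comes from the clone arrays left out. Clone 7 then exceeded mock by 0.44 ± 0.07, under the fold limit, and clone 8 by 1.16 ± 0.07 (adjusted p 2.14e-06).

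PCDH18, a non-clustered protocadherin related to PCDH10, was highest in wild-type cells, lower in mock and lowest in the clones. Its levels were 8.94, 8.97 and 8.97 on the wild-type arrays and 8.57, 8.41 and 8.42 on mock. They were 8.24, 8.32 and 7.56 on the arrays labelled clone 7 and 7.23, 7.37 and 8.22 on those labelled clone 8. No 2 of wild-type, mock and the pooled clones overlapped. PCDH18 was 2.20-fold lower in both clones than in wild-type (log2 -1.14 ± 0.20, adjusted p 0.00403), and this call held under every alternative run, at -1.17 ± 0.06 without the 2 arrays (adjusted p 2.82e-07). The difference from mock was -0.65 ± 0.20 for both clones (interval -1.08 to -0.21, adjusted p 0.0838) and -0.49 ± 0.23 for mock against wild-type (adjusted p 0.439), and neither was called.

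Without array 3 of clone 8, PCDH18 in both clones against mock reached -0.80 (adjusted p 0.00561), and without both doubted arrays -0.68 ± 0.06 (adjusted p 4.59e-05). Clone 8 against mock stood at -0.86 ± 0.23 (adjusted p 0.0535), just short of a call. It was called after median centring (-0.90, adjusted p 0.0433), without dim genes (adjusted p 0.0458), with an intensity trend (adjusted p 0.0468) and with array weights (-0.88, adjusted p 0.0204). It stood at -0.86 without array 3 of clone 7 (adjusted p 0.0214), at -1.17 without array 3 of clone 8 (adjusted p 0.00363) and at -1.17 ± 0.07 without both (adjusted p 1.96e-06). Clone 7 against mock was not called with all arrays (-0.43 ± 0.23, adjusted p 0.447) or without both (-0.19 ± 0.07, adjusted p 0.112). Clone 8 differed from clone 7 by -0.44 ± 0.23 with all arrays (adjusted p 0.62) and by -0.99 ± 0.08 without both (adjusted p 1.06e-05).

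PCDH7, a non-clustered protocadherin of brain and heart, lay above its wild-type levels on every transfected array. Its levels were 9.44, 9.42 and 9.41 on the wild-type arrays, 9.85, 9.78 and 9.71 on mock, 9.83, 9.85 and 9.76 on clone 7 and 9.60, 9.73 and 9.86 on clone 8. The clone arrays overlapped mock, and neither overlapped wild-type. PCDH7 differed by 0.36 ± 0.07 between mock and wild-type (1.28-fold, adjusted p 0.0193) and by 0.35 ± 0.06 between both clones and wild-type (adjusted p 0.00374). Both passed the adjusted p but not the fold limit. Both clones differed from mock by -0.01 ± 0.06 (interval -0.14 to 0.13, adjusted p 0.962). With the 2 arrays left out the differences were 0.36 ± 0.06 (adjusted p 0.00281), 0.33 ± 0.05 (adjusted p 0.00158) and -0.03 ± 0.05 (adjusted p 0.818).

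PCDH9, a non-clustered protocadherin of the brain, lay between 5.70 and 6.20 on all arrays, below the lower quartile of gene levels in each group. The highest and the lowest of these levels were both on arrays labelled clone 8. Its differences in the 6 contrasts ran from -0.14 to 0.09, and none was called. They ran from -0.18 to 0.04 without the 2 arrays.

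**Figure D3:**
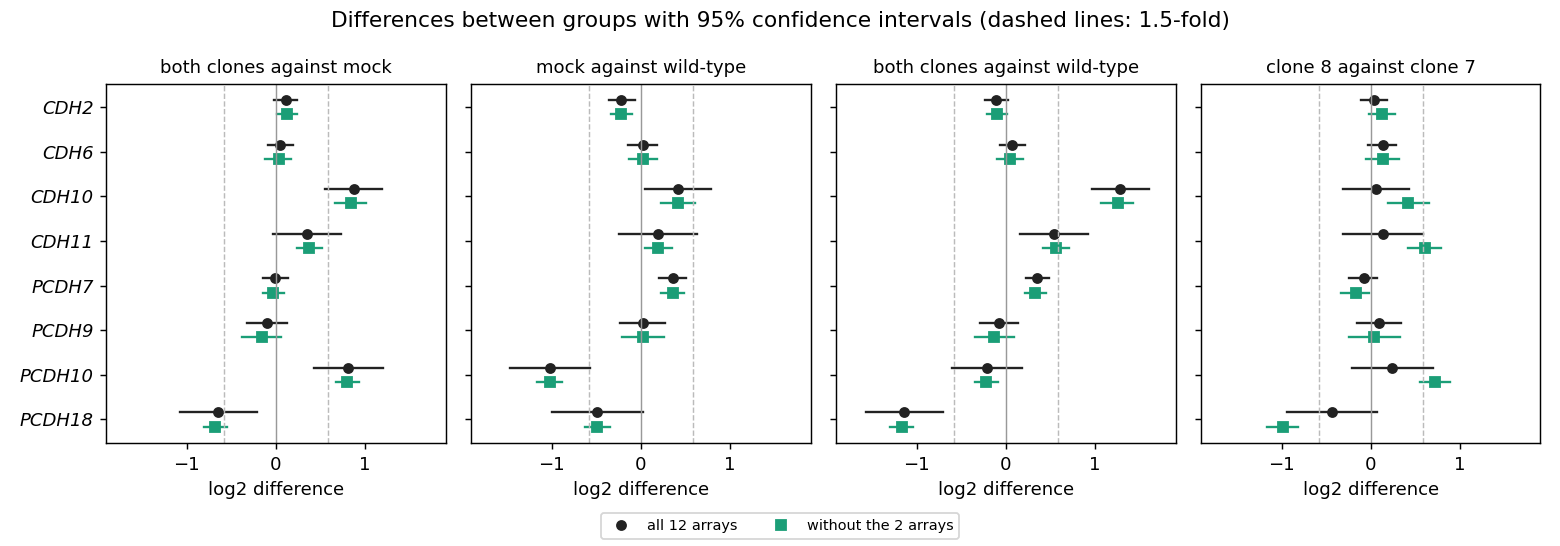
Log2 differences (horizontal axis) of the 8 genes (vertical axis) in 4 contrasts, with 95% confidence intervals from limma, for all 12 arrays (black circles) and without arrays 3 of both clones (green squares); dashed lines mark 1.5-fold. The first 3 panels differ mainly in the width of the intervals, while in clone 8 against clone 7 CDH11, PCDH10 and PCDH18 move from 0.14, 0.24 and -0.44 to 0.61, 0.72 and -0.99.

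Within the 6 clone arrays CDH10, CDH11, PCDH10 and PCDH18 varied together. PCDH10 correlated with CDH11 at 0.98, with CDH10 at 0.94 and with PCDH18 at -0.95, and CDH10 correlated with CDH11 at 0.92, over 6 arrays that share their normalization. CDH2 and PCDH7 correlated with PCDH10 at 0.88 and -0.76 over much narrower ranges. The dim genes did not follow, CDH6 correlating at 0.19 and PCDH9 at -0.14 with PCDH10. On arrays 1 and 2 of clone 7 and array 3 of clone 8, CDH10 lay between 7.99 and 8.07, CDH11 between 11.15 and 11.33, PCDH10 between 12.09 and 12.17 and PCDH18 between 8.22 and 8.32. On arrays 1 and 2 of clone 8 and array 3 of clone 7, CDH10 lay between 8.29 and 8.66, CDH11 between 11.88 and 11.95, PCDH10 between 12.78 and 12.91 and PCDH18 between 7.23 and 7.56. None of these ranges met between the sets, as was so for 33.2% of all genes. CDH2 (13.20 to 13.32 against 13.37 to 13.39) and PCDH7 (9.83 to 9.86 against 9.60 to 9.76) did not overlap either. CDH6 and PCDH9 did overlap. Nothing is read from this split about the members. EMC10 itself was at 11.57, 11.72 and 11.75 on the former arrays and at 12.13, 12.18 and 12.30 on the latter. Fibroblast markers split the same way. Of the 8, 7 did not overlap between the sets, beside 33.2% of all genes, and their mean lay between 9.97 and 10.01 on the former arrays and between 9.29 and 9.44 on the latter. Named after their values were seen, the collagens COL1A2 (12.02 to 12.10 against 10.04 to 10.21) and COL3A1 (11.28 to 11.34 against 10.04 to 10.11) and the membrane protease FAP (8.47 to 8.93 against 6.61 to 6.77) were higher on the former arrays, and the proteoglycan LUM (7.54 to 7.59 against 8.56 to 9.33) was lower. In the other lists fewer genes parted. These were 2 of 7 neuronal, 3 of 7 epithelial, 2 of 7 leukocyte, 2 of 10 astroglial and 1 of 8 endothelial markers. The neuronal mean lay at 8.65 to 8.80 on the former arrays and 8.29 to 8.43 on the latter. The epithelial mean lay at 9.78 to 9.86 and 9.90 to 9.98. MAP2, a neuronal gene named after its values were seen, lay at 9.48 to 9.67 against 7.07 to 7.22. The part of all these markers in the results was not tested. These sets follow the measured profile and not the labels, and no test was made between them.

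Over all 12 arrays, the genes whose levels ran most like those of CDH10, among 14158 genes reaching the lower quartile in at least 1 group, were VCAN (r = 0.992), the matrix proteoglycan versican, GFRA1 (0.988), a receptor of glial cell line-derived neurotrophic factor, and ZMAT3 (0.984), an RNA-binding target of p53. For PCDH10 they were the kinase RPS6KA2 (0.974), the mitochondrial co-chaperone DNAJC15 (0.972) and the urokinase receptor PLAUR (0.956). For PCDH18 they were STEAP3 (0.989), an iron reductase, CCBE1 (0.989), a factor of lymphatic growth, and SLIT2 (0.987), the guidance ligand of ROBO receptors. These correlations describe 12 arrays that fall into 4 groups and share their normalization.

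No neighbour of CDH10 on chromosome 5 was called, and most were dim. The 4 measured genes on either side, among them the type II cadherins CDH12, CDH9 and CDH6, differed between both clones and mock by -0.25 to 0.06, and 0 of the 8 were called in any contrast. The range was -0.23 to 0.08 without the 2 arrays, again with 0 called. The shares of all genes called in at least 1 contrast were 2.37% with all arrays and 5.92% without the 2. Of the 8, 6 lay below the lower quartile of gene levels in every group. CDH12 lay at 6.75 ± 0.07 (SD, n = 3) on the wild-type arrays, 7.13 ± 0.23 on mock, 6.89 ± 0.23 on clone 7 and 6.87 ± 0.17 on clone 8, and CDH9 at 5.59 to 5.84 in the 4 group means, both below the lower quartile. PCDH10 and PCDH18 were next to each other among the measured genes of chromosome 4 and stood at 0.81 and -0.65 between both clones and mock (adjusted p 0.0181 and 0.0838, the latter not called), at -1.02 and -0.49 between mock and wild-type and at -0.21 and -1.14 between both clones and wild-type. Of the 8 measured neighbours of PCDH10, PCDH18 included, the differences between both clones and mock ran from -0.65 to 0.01. Without the 2 arrays they ran from -0.68 to 0.02. Between both clones and mock with all arrays, SCLT1, a centriole gene, stood at -0.63 and C4orf33 at -0.49, neither called. SLC7A11, the cystine transporter next to PCDH18, stood at -0.44 there. With all arrays SLC7A11 was called in both clones against wild-type (-0.62). Without the 2 arrays it stood at -0.58 there, just under the fold limit. It was then called in clone 8 against clone 7 (-0.75). SCLT1, C4orf33 and SLC7A11, with those arrays left out, stood at -0.63, -0.45 and -0.40 between both clones and mock, and SCLT1 was then called. These 3 neighbours are named after their values were seen. Gene order was taken from RefSeq (GRCh38.p14).

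**Figure D4:**
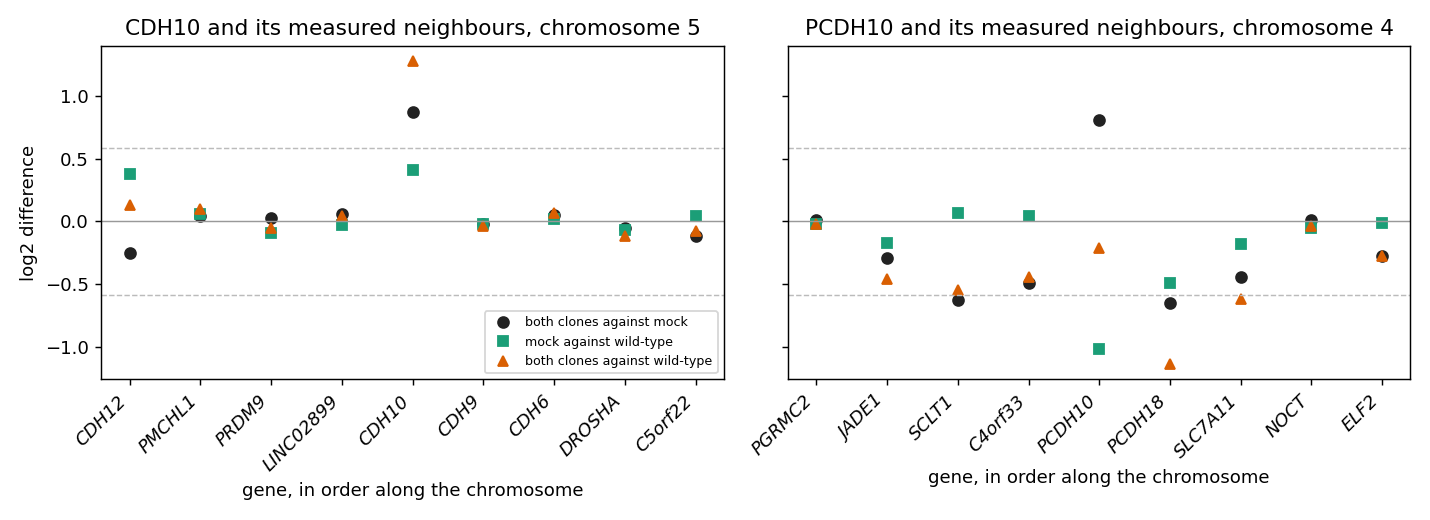
Log2 differences (vertical axis) of CDH10 and PCDH10 and of the 4 measured genes on each side, in order along chromosomes 5 and 4 (horizontal axis), for both clones against mock (circles), mock against wild-type (squares) and both clones against wild-type (triangles); dashed lines mark 1.5-fold. CDH10 lies at 0.87 and 1.28 among neighbours of which 6 of 8 are dim, and PCDH10 at 0.81 and -1.02 is flanked by genes between -0.65 and 0.01 in both clones against mock.

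The desmosomal cadherins are listed apart with the desmosomal genes below. Of the 70 other cadherins and protocadherins measured, 0 rose and 0 fell between both clones and mock, beside 0.728% of all genes called. Their median difference there was 0.11 (range -0.47 to 0.56) beside 0.01 over all genes. Between mock and wild-type 0 were called either way, beside 0.673% of all genes, with a median of -0.04 beside 0.02. Between both clones and wild-type 0 rose and 1 fell, beside 1.58% of all genes, with a median of 0.08 beside 0.03. The 1 that fell was FAT4, a giant cadherin that pairs with DCHS1 in planar polarity and Hippo signalling. FAT4 was at 9.32, 9.47 and 9.48 on the wild-type arrays, 9.07, 9.00 and 8.97 on mock, 8.72, 8.79 and 8.82 on clone 7 and 8.59, 8.82 and 8.70 on clone 8. Wild-type, mock and clone arrays did not overlap, and FAT4 was 1.60-fold lower in both clones than in wild-type (log2 -0.68 ± 0.06, adjusted p 3.74e-05), at -0.69 without the 2 arrays. Without those arrays the shares of all genes called in these 3 contrasts were 1.04%, 1.08% and 1.88%. The counts were the same but for mock against wild-type, where 1 of the 70 fell. This was CDH18, a type II cadherin named after its values were seen, at -0.59 ± 0.22 with all arrays (adjusted p 0.273) and -0.59 ± 0.05 without the 2 (adjusted p 5.28e-05), with group means of 7.44, 6.85, 7.28 and 7.55 over wild-type, mock, clone 7 and clone 8, all below the lower quartile. For the single clones 0 of the 70 were called in either direction with all arrays. Of all genes 0.7% were called in clone 7 against mock and 0.76% in clone 8 against mock. Without the 2 arrays 3 rose and 0 fell in clone 7 against mock, beside 2.17% of all genes, 1 rose and 1 fell in clone 8 against mock, beside 2.06%, and 2 were higher and 3 lower in clone 8 than in clone 7, beside 3.35%. CDH18 was the 1 that rose in clone 8 against mock (0.96 ± 0.06, adjusted p 2.14e-06), and CDH18 (0.80 ± 0.06) and PCDH15 (0.85 ± 0.08), a dim protocadherin of hair cells named after its values were seen, were the 2 higher in clone 8 than in clone 7. The rest were clustered protocadherins.

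Of the epithelial cadherins, CDH1 was dim and CDH3 lay near the lower quartile of gene levels (7.80). The CDH3 means were 7.65 in wild-type and 7.75 in mock, below it, and 7.89 in clone 7 and 7.95 in clone 8. CDH1 (E-cadherin) lay between 7.10 and 7.50 on all arrays and CDH3 (P-cadherin) between 7.60 and 8.03, and CDH3 exceeded wild-type by 0.27 ± 0.05 in both clones (adjusted p 0.00815) and by 0.26 ± 0.05 without the 2 arrays (adjusted p 0.0076), under the fold limit. Of 12 desmosomal genes 0 were called between both clones and mock, beside 0.728% of all genes, with a median of 0.07. Among the other non-clustered protocadherins, PCDH1 exceeded mock by 0.26 ± 0.06 (adjusted p 0.0282) and PCDH17 by 0.26 ± 0.07 (adjusted p 0.0444) in both clones, each under the fold limit, while PCDH8 and PCDH19 each differed by 0.05 ± 0.09. Leaving out the 2 arrays, PCDH1 stood at 0.21 ± 0.06 (adjusted p 0.0264), PCDH17 at 0.27 ± 0.07 (adjusted p 0.0319), PCDH8 at 0.03 ± 0.09 and PCDH19 at 0.01 ± 0.09.

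The clustered protocadherins, the neighbouring alpha, beta and gamma genes of chromosome 5 that give neurons surface identities, were measured for 29 of 53 listed genes. Their copies are similar in sequence and share probes, so that single values are uncertain. Of the 29, 0 were called between both clones and mock, beside 0.728% of all genes. There 25 lay above 0 (86.2%, median 0.28) beside 53.7% of all genes. Between mock and wild-type 4 lay above 0 (13.8%, median -0.16) beside 56.9%, and between both clones and wild-type 19 did (65.5%, median 0.08) beside 57.4%. The first 2 of these contrasts share the mock arrays. Between both clones and mock 25 of the 29 also lay above 0 without the 2 arrays (median 0.26). Named after their values were seen, PCDHB10 had a difference of 0.47 ± 0.08 (adjusted p 0.0053) and PCDHB16 one of -0.47 ± 0.17 (adjusted p 0.138) between both clones and mock, and of 0.49 ± 0.06 (adjusted p 0.000617) and -0.45 ± 0.06 (adjusted p 0.00104) without the 2 arrays, all under the fold limit. PCDHB10 was at 10.54 ± 0.07 (SD) on the wild-type arrays, 10.06 ± 0.04 on mock, 10.64 ± 0.17 on clone 7 and 10.42 ± 0.15 on clone 8.

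The clones parted on the clustered genes without the 2 arrays. Of the 29, 3 then rose in clone 7 against mock, and these were, named after their values were seen, PCDHB10 (0.68 ± 0.08, adjusted p 0.000206), PCDHB13 (0.64 ± 0.08, adjusted p 0.000447) and PCDHA12 (0.67 ± 0.07, adjusted p 0.000157). In clone 8 against mock 1 fell, PCDHB16 (-0.89 ± 0.08, adjusted p 3.08e-05). The 3 that were lower in clone 8 than in clone 7 were PCDHB16 (-0.87 ± 0.08), PCDHB8 (-0.67 ± 0.10) and PCDHB13 (-0.64 ± 0.09). The shares of all genes called in these contrasts were 2.17%, 2.06% and 3.35%. With all 12 arrays 0 of the 29 were called in them, beside 0.7%, 0.76% and 0% of all genes.

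**Figure D5:**
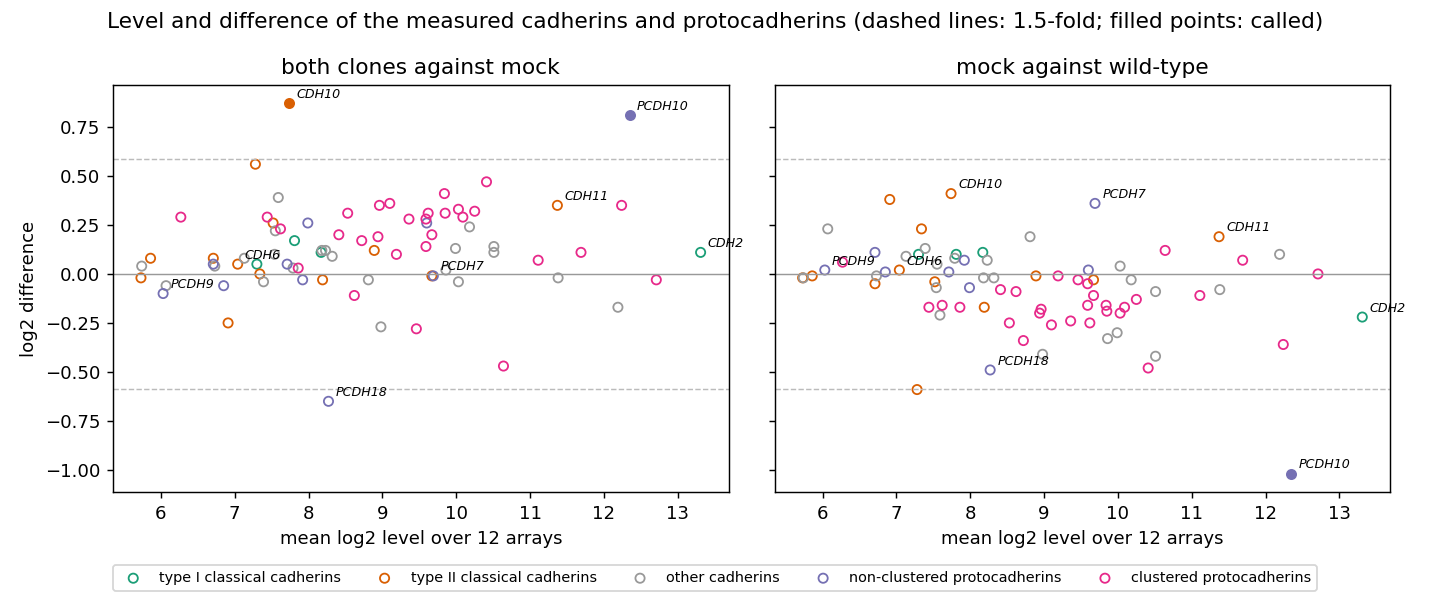
Log2 difference (vertical axis) against the mean log2 level over 12 arrays (horizontal axis) for the measured cadherins and protocadherins by subfamily. The panels are both clones against mock and mock against wild-type, and desmosomal cadherins are not shown. Filled points are called changed and dashed lines mark 1.5-fold. CDH10 and PCDH10 are the only filled points on the left and PCDH10 the only one on the right, and the clustered protocadherins lie mostly above 0 on the left (25 of 29) and below it on the right.

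The cytoplasmic partners of the cadherins showed no call in any of the 6 contrasts, with or without the 2 arrays. Of all genes 2.37% were called in at least 1 contrast, and 5.92% without the 2 arrays, so that few calls would fall on so short a list. CTNNB1 (beta-catenin) had group means of 13.07, 13.06, 13.06 and 13.04 over wild-type, mock, clone 7 and clone 8, and CTNNA1 (alpha-catenin) of 12.47, 12.44, 12.32 and 12.23. CTNNA1 differed by -0.17 ± 0.05 between both clones and mock (adjusted p 0.088) and by -0.20 ± 0.05 between both clones and wild-type (adjusted p 0.0365), under the fold limit, and by -0.16 ± 0.05 and -0.19 ± 0.05 without the 2 arrays (adjusted p 0.0773 and 0.0332). CTNND1 (p120 catenin) was not analysed here. Of 17 catenins and junction partners measured of 18 listed, 0 were called between both clones and mock, beside 0.728% of all genes (median -0.03), nor were any of 12 cytoplasmic partners of protocadherins, the WAVE complex among them (median -0.05), or of 17 proteases that process cadherins (median 0.11). Leaving out the 2 arrays, 2 of the proteases, named after their values were seen, were called in single clones, beside 2.17% of all genes in clone 7 against mock, 2.06% in clone 8 against mock and 3.35% in clone 8 against clone 7. MMP2, a gelatinase, was higher in clone 7 than in mock (0.81 ± 0.08, adjusted p 9.9e-05) and lower in clone 8 than in clone 7 (-0.74 ± 0.09, adjusted p 0.000211). PCSK6, a proprotein convertase, was higher in clone 8 than in mock (0.71 ± 0.06, adjusted p 2.79e-05) and than in clone 7 (0.82 ± 0.07, adjusted p 1.27e-05).

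Of 16 measured regulators of cadherin transcription, 2 were called in at least 1 contrast, beside 2.37% of all genes, and 2 without the 2 arrays, beside 5.92%. PRRX1, a homeodomain factor of mesenchymal cells, was at 11.73, 11.83 and 11.91 on the wild-type arrays, 10.52, 10.46 and 10.43 on mock, 10.20, 10.24 and 9.44 on clone 7 and 9.28, 9.52 and 10.19 on clone 8. These levels did not overlap between wild-type, mock and the clones. PRRX1 was lower in mock than in wild-type (log2 -1.35 ± 0.22, adjusted p 0.00737) and lower in both clones than in wild-type (-2.01 ± 0.19, 4.03-fold, adjusted p 6.07e-05), the latter at -2.01 ± 0.07 without the 2 arrays. Between both clones and mock it stood at -0.66 ± 0.19 (adjusted p 0.0675), and at -0.66 ± 0.07 without the 2 arrays (adjusted p 0.000132), then called. Without them clone 8 was lower than mock (-1.07 ± 0.08, adjusted p 1.14e-05) and than clone 7 (-0.82 ± 0.09, adjusted p 0.000103), both called. Clone 7 against mock was not called (-0.25 ± 0.08, adjusted p 0.0669).

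SNAI2 (SLUG), a repressor that binds E-boxes of the E-cadherin promoter, was at 11.57, 11.59 and 11.68 on the wild-type arrays, 11.52, 11.37 and 11.46 on mock, 12.38, 12.25 and 11.86 on clone 7 and 11.61, 11.82 and 12.21 on clone 8. Each clone array lay above each mock array, and the lowest clone array lay within the wild-type range. SNAI2 was called in clone 7 against mock (0.71 ± 0.15, adjusted p 0.0215) and stood at 0.43 ± 0.15 in clone 8 against mock (adjusted p 0.115). The difference between the clones was -0.28 ± 0.15 (adjusted p 0.62), and -0.60 ± 0.09 without the 2 arrays (adjusted p 0.000729). Without those arrays clone 7 exceeded mock by 0.86 ± 0.08 (adjusted p 5.6e-05) and clone 8 by 0.26 ± 0.08 (adjusted p 0.048), the latter under the fold limit. In both clones against mock SNAI2 passed the adjusted p but not the fold limit (0.57 ± 0.13, adjusted p 0.0191, and 0.56 ± 0.07 without the 2 arrays, adjusted p 0.000341).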

How the data were processed

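A172 RNA was hybridised to 12 arrays. The authors deposited log2 expression values, 1 per probe set and array, already summarised and normalised. Partek is named in the submitters' processing notes, without a version, and for the summary, the normalisation and the genome build the methods were not given in the sources used here. There were 33297 probe sets with 0 missing values and array medians of 8.60 to 8.67. No detection call came with it, and no comparison of the authors was used. The platform annotation gave 1 symbol to 19460 of them, several to 1754 and none to 12083. By Entrez number 19429 matched RefSeq (GRCh38.p14), which changed 0 symbols. The probe set with the highest mean was kept for each of the 18417 genes, of which 769 had more than 1.

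Differences among the 4 groups were estimated with limma 3.58.1 (lmFit, eBayes) in R 4.3.3, with data.table in version 1.17.8, after a test on simulated data, with 6 contrasts and Benjamini-Hochberg adjustment over all genes of a contrast. Errors on differences are standard errors from the model. Errors on levels are SDs over 3 arrays, whose number limits the precision.

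The members, the family lists and the tests were chosen with earlier results of these data known. Named beside the members were genes of the family lists called in at least 1 contrast, a fixed set (CDH1, CDH3, CDH9, CDH12, PCDH1, PCDH8, PCDH17, PCDH19, CTNNA1, CTNNB1, CTNND1) and, for members whose group means spanned at least 1, the 3 genes with the highest Pearson correlation. Alternatives were quantile normalisation, median centring, array weights, an intensity trend, the mean of a gene's probe sets, genes above the lower quartile only, the compared groups only, a fold limit of 1.3, the replicate number as a block and each array left out in turn. Leaving out arrays 3 of both clones together was added after the data were seen.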

Additional observations from a re-analysis of the deposited data

How the results depend on the processing

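Over 48 differences (8 genes, 6 contrasts) and 20 alternative settings, 897 of 948 values kept their direction and their side of the threshold, 24 lost a call, 10 gained one and 17 turned direction. None of the 17 was called, and each came from leaving out 1 array. With 1 array left out, clone 8 against clone 7 ran from -0.10 to 0.27 for CDH10, from -0.01 to 0.39 for CDH11 and from -0.02 to 0.09 for CDH2. CDH6 ran from -0.05 to 0.04 in clone 7 against mock and from -0.03 to 0.06 in mock against wild-type. PCDH7 ran from -0.04 to 0.03 in both clones against mock and from -0.12 to 0.02 in clone 8 against mock. PCDH9 ran from -0.13 to 0.01 in both clones against wild-type, from -0.14 to 0.11 in clone 8 against mock and from -0.03 to 0.06 in mock against wild-type. The number of the 8 genes called ran from 1 to 3 in both clones against mock, from 0 to 2 in clone 7 against mock, from 0 to 4 in clone 8 against mock and from 0 to 1 in mock against wild-type. With only the compared groups in the fit, 1 gene was called in both clones against mock and 1 in clone 8 against mock. Without arrays 3 of both clones 4 were called in clone 8 against mock and 3 in clone 8 against clone 7. The cause of these shifts was not tested, beyond the fewer arrays.

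Same-numbered arrays did not deviate together (18 pairs, r from -0.83 to 0.45, 3 above 0.1), so that the numbers pair nothing. With the replicate block 2 genes were called in both clones against mock, 2 in both clones against wild-type, 0 in clone 7 against mock, 1 in clone 8 against mock and 0 in mock against wild-type. The adjusted p was then 0.0547 for CDH10 in clone 7 against mock, 0.0597 for PCDH10 in clone 8 against mock and 0.0631 for PCDH10 in mock against wild-type. Quantile normalisation and median centring moved the median of all genes by at most 0.04 in size (-0.04 in clone 8 against mock). Dim genes are limited by signal over background.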
